A study of Gallus gallus with 12 samples.

Results

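The members described here are 75 chicken genes of the kinetochore, the mitotic kinases and the kinesin motors, out of 13008 genes with a symbol of their own on the array. They were taken by symbol: every gene whose symbol begins with CENP, KIF, AURK, BUB, NDC80, NUF2, SPC2, PLK or MAD2, and also TTK, INCENP, BIRC5, CDC20 and TPX2. These genes have 167 probe sets in all, and each gene is represented by the probe set with the highest mean over the 12 arrays. The rule also named ESPL1 and PTTG1, which had no probe set under their own symbol alone, as was so for AURKA and CENPA. Total RNA of White Leghorn embryos had been hybridised to Affymetrix chicken genome arrays, 1 array per sample and 3 independent samples per group. PGC are primordial germ cells, the precursors of eggs and sperm, sorted magnetically from gonads at embryonic day 6.5, with gonads of 100 embryos of mixed sex pooled per sample. GSC are the gonadal stromal cells of the same age, obtained by the same kind of sort and pooled from 100 embryos per sample. CEF are fibroblasts from 5 embryos of day 6.5 per sample, taken from the body (its muscular area, in the labels) and grown in culture to passage 2. Blastoderm samples are dissociated cells of 5 stage X embryos each from freshly laid eggs. None of the groups carries a transgene or a treatment according to the labels, and the sorting antibody is not given in the sources used.

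A kinetochore is the protein assembly on the centromere to which spindle microtubules attach. Its inner layer of CENP proteins sits on centromeric chromatin, and its outer layer holds the NDC80 complex, which grips the microtubule. The spindle checkpoint delays anaphase until every kinetochore is attached, the chromosomal passenger complex built around Aurora B releases faulty attachments, and polo-like kinases and TPX2 organise the spindle poles. Mitotic kinesins slide, cross-link or depolymerise spindle microtubules, while other kinesins carry cargo in the cytoplasm or in cilia of cells that need not be dividing. The transcripts of many mitotic genes accumulate late in the cell cycle, and a fertilised egg also stores such transcripts for its cleavage divisions. In bulk RNA of this kind, a smaller share of dividing cells and less of a transcript per cell cannot be told apart.

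All levels are the authors' deposited log2 signals, so a difference of 1 is a 2-fold difference. Array medians lay between 3.50 and 3.65. Background was set at 3.61, below which 99% of the values of the array's viral and reporter probe sets lay. By group mean, 66 members were above it in PGC, 64 members in GSC, 63 in CEF and 68 in blastoderm. Of the 75, 69 were above it in some group, and SPC25, KIF2B, KIF20AL, KIF21B, KIF27 and KIF6 in none. The markers of the labelled cells had their highest medians in their own groups. Over 8 germ cell markers the median was 8.34 to 9.13 in PGC arrays and 4.47 to 4.69 in GSC arrays, though 7 of the 8 were above background in every GSC array too. Over 6 gonadal somatic markers it was 8.10 to 8.42 in GSC arrays and 5.68 to 7.20 in PGC arrays, with 5 or 6 of the 6 above background there. The 7 fibroblast and matrix markers were above background in every CEF, PGC and GSC array (medians from 11.31 in CEF, 10.40 in GSC and 7.93 in PGC), and the 4 early embryo markers in every blastoderm array, with medians of 9.58 to 10.25. Markers of other cells also differed between the groups: the median of the 2 measured erythroid markers was 9.42 to 10.33 in PGC, 10.71 to 10.74 in GSC, 3.74 to 3.91 in CEF and 5.70 to 6.64 in blastoderm, that of 5 endothelial markers was 4.23 to 5.81 in PGC, 6.32 to 6.86 in GSC, 2.27 to 2.85 in CEF and 2.43 to 2.85 in blastoderm, and that of 3 leukocyte markers was 3.03 to 3.15 in PGC, 4.19 to 4.74 in GSC, 4.51 to 6.70 in CEF and 2.48 to 2.70 in blastoderm. The part of these cells in the differences between groups was not tested. The third PGC array stood apart from the other PGC arrays. Its median over the gonadal somatic markers was 7.20, against 5.68 and 5.88 in PGC replicates 1 and 2, and its median over the germ cell markers was 8.34, against 9.09 and 9.13. The calls that changed without it are given with the comparison of PGC and GSC. The difference between 3′ and 5′ control probe sets, a measure of RNA degradation, averaged 0.23 ± 0.15 for PGC, 0.00 ± 0.08 for GSC, 0.34 ± 0.33 for CEF and 0.55 ± 0.23 for blastoderm (log2, SD, n = 3 each). Its part in the differences from blastoderm was not tested.

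Most members were at their highest in blastoderm and at their lowest in cultured fibroblasts. The highest group mean was that of blastoderm for 47 of 75 members (62.7%), against 33.3% of all genes. The lowest was that of CEF for 43 members (57.3%), against 28.3% of all genes. By the moderated test of limma across all probe sets, called at a Benjamini-Hochberg adjusted p below 0.05, PGC had 8 members higher and 35 lower than blastoderm, where 26.2% of all genes were called higher and 23.5% lower. The 8 became 5 without PGC replicate 1 (24.4% of all genes called higher) or without blastoderm replicate 3. GSC had 6 members higher and 35 lower than blastoderm, beside 24.8% of all genes higher and 25.4% lower. CEF had 6 higher and 49 lower than blastoderm, beside 24.0% and 27.2% of all genes. The median log2 difference of the members from blastoderm was -0.43 in PGC, -0.48 in GSC and -1.16 in CEF, and that of all genes was -0.07, -0.07 and -0.05 in the same order. Among only the genes above background in some group, 25.6% were lower in PGC, 28.6% in GSC and 31.7% in CEF than in blastoderm. These comparisons share the blastoderm arrays.

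Among the day 6.5 groups, more members were called between the gonadal cells and the fibroblasts than between the gonadal populations. PGC had 34 members higher and 9 lower than CEF, beside 27.7% of all genes higher and 22.0% lower. GSC had 30 higher and 9 lower than CEF, beside 22.3% and 20.2% of all genes. Between the gonadal populations, PGC had 9 members higher and 7 lower than GSC, below the shares of all genes, 16.8% and 13.4%. The median log2 difference was 0.39 for PGC versus CEF, 0.22 for GSC versus CEF and -0.03 for PGC versus GSC.

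**Figure D1:**
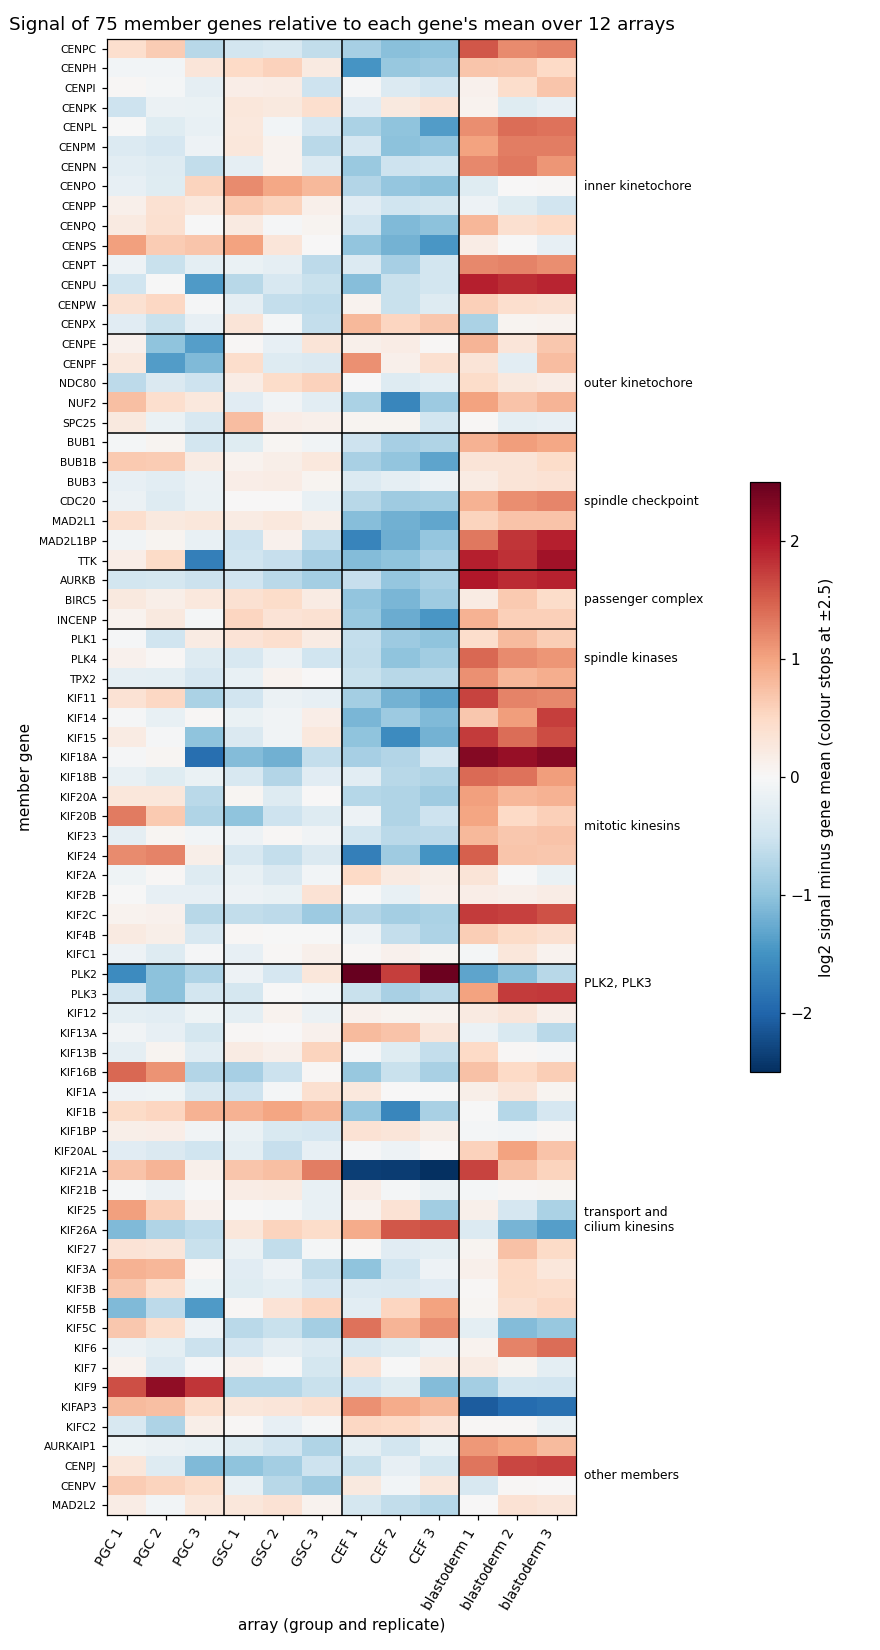
Log2 signal of each of the 75 members minus that gene's mean over 12 arrays, by role (rows) and array (columns, PGC, GSC, CEF and blastoderm from left to right). Most mitotic genes are red in the blastoderm arrays and blue in the CEF arrays, PLK2 is red in CEF, KIF9 in PGC, and KIFAP3 is blue in blastoderm.

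The mitotic core, made of the kinetochore, checkpoint, passenger complex and spindle kinase genes and the mitotic kinesins, holds 47 of the 75 members. Of these, 2 were higher and 29 lower in PGC than in blastoderm, 2 higher and 27 lower in GSC than in blastoderm, and 1 higher and 38 lower in CEF than in blastoderm. The 2 higher in PGC were CENPS and CENPP, and the 2 higher in GSC were CENPO and CENPP. The probe sets of CENPP disagree in direction. Against CEF, 27 were higher and 3 lower in PGC, and 26 were higher and 2 lower in GSC. Of all genes, 27.7% were higher and 22.0% lower in PGC than in CEF, and 22.3% and 20.2% in GSC. Between PGC and GSC, 4 were higher and 4 lower in PGC, beside 16.8% and 13.4% of all genes. The 22 transport and cilium kinesins are all other members whose symbol begins with KIF, with KIFAP3, KIF1BP and KIF20AL among them. As a set the 22 had no such direction: 5 were higher and 3 lower in PGC than in blastoderm, 3 higher and 5 lower in GSC than in blastoderm, and 4 higher and 7 lower in CEF than in blastoderm. Of all genes, 26.2% were higher and 23.5% lower in PGC than in blastoderm. These shares were 24.8% and 25.4% in GSC, and 24.0% and 27.2% in CEF. The same shares apply to the counts by role below.

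**Figure D2:**
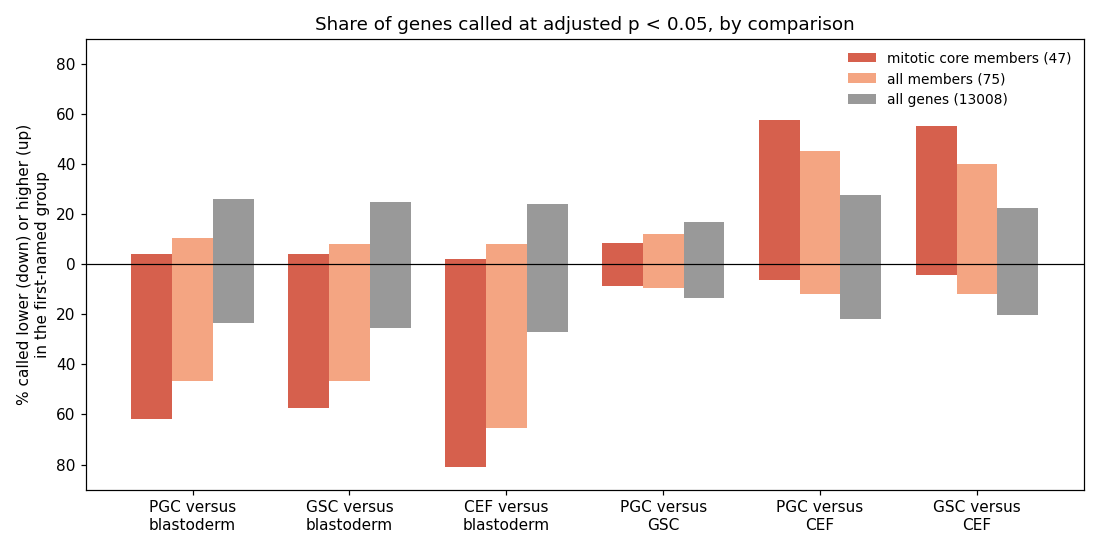
Percent of genes called higher (upward bars) or lower (downward bars) in the first-named group of each comparison, for the 47 mitotic core members, all 75 members and all 13008 genes. In the 3 comparisons with blastoderm the mitotic core bars point mainly down, in both comparisons with CEF mainly up, and between PGC and GSC all bars are short.

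The inner kinetochore was represented by 15 CENP genes. Compared with blastoderm, 2 were higher and 7 lower in PGC, 2 higher and 7 lower in GSC, and 1 higher and 12 lower in CEF. CENPP, whose probe sets disagree, is among those higher in PGC and in GSC. CENPU, a subunit of the CENP-O/P/Q/U/R group that in human cells docks polo-like kinase, measured 4.56, 5.05 and 3.65 in PGC, 4.38, 4.66 and 4.50 in GSC, 4.0, 4.51 and 4.60 in CEF, and 7.0, 6.90 and 6.97 in blastoderm. Every blastoderm array lay above every other array, and the difference was 5.79-fold lower in PGC (adjusted p = 2.48e-06), 5.44-fold lower in GSC (adjusted p = 3.00e-06) and 6.01-fold lower in CEF (adjusted p = 1.27e-06). Since its PGC, GSC and CEF values lie near background, these folds shrank with a constant of 64 added before the logarithm, to log2 differences of -1.12, -1.11 and -1.15. With all 4 of its probe sets averaged, some of them under background in every group, they were -1.31, -1.26 and -1.15. The other CENPU probe set above background was called lower in PGC, GSC and CEF (log2 -2.31, -2.37 and -2.10). With the constant of 64, 41 of the 156 differences of named members moved by over 1.5 times, those of genes with a low level in 1 of the groups. CENPC, the scaffold that ties centromeric nucleosomes to the outer layer, measured 7.28, 7.49 and 6.17 in PGC, 6.41, 6.47 and 6.25 in GSC, 6.04, 5.82 and 5.85 in CEF, and 8.41, 8.04 and 8.11 in blastoderm. It was 2.31-fold lower in PGC (adjusted p = 0.00172), 3.51-fold lower in GSC (adjusted p = 3.71e-05) and 4.87-fold lower in CEF (adjusted p = 2.56e-06) than in blastoderm. PGC replicates 1 and 2 lay above every GSC and CEF array, and PGC replicate 3 lay below every GSC array.

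CENPT, a histone-fold protein that recruits the NDC80 complex, and CENPN, which recognises the centromeric nucleosome, were likewise highest in blastoderm. CENPT was 7.58, 7.15 and 7.44 in PGC, 7.53, 7.46 and 7.03 in GSC, 7.35, 6.87 and 7.24 in CEF, and 8.90, 8.93 and 8.85 in blastoderm. CENPN was 5.94, 5.87 and 5.58 in PGC, 5.98, 6.28 and 5.86 in GSC, 5.28, 5.69 and 5.70 in CEF, and 7.40, 7.51 and 7.30 in blastoderm. For both genes the day 6.5 arrays stayed below every blastoderm array while PGC, GSC and CEF overlapped or nearly touched, with differences from blastoderm of -1.51 ± 0.19, -1.55 ± 0.19 and -1.74 ± 0.19 for CENPT and -1.61 ± 0.20, -1.36 ± 0.20 and -1.85 ± 0.20 for CENPN in PGC, GSC and CEF (log2 ± SE).

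Other inner kinetochore genes fell mainly in the fibroblasts. CENPH, of the CENP-H/I/K/M group, measured 8.67, 8.67 and 9.05 in PGC, 9.24, 9.32 and 8.97 in GSC, 7.27, 7.79 and 7.85 in CEF, and 9.43, 9.41 and 9.24 in blastoderm. All CEF arrays lay below all others, with 2.24-fold higher levels in PGC than in CEF (adjusted p = 4.34e-05) and 2.91-fold higher levels in GSC than in CEF (adjusted p = 2.52e-06). CENPS, a histone-fold protein that also serves in DNA repair, measured 8.57, 8.19 and 8.23 in PGC, 8.55, 7.85 and 7.56 in GSC, 6.57, 6.36 and 6.09 in CEF, and 7.73, 7.54 and 7.34 in blastoderm. It was 3.98-fold higher in PGC than in CEF (adjusted p = 3.26e-06) and 3.14-fold higher in GSC than in CEF (adjusted p = 2.96e-05). CENPS was also 1.73-fold higher in PGC than in blastoderm (adjusted p = 0.0122), a call that ended without PGC replicate 1 (adjusted p = 0.0577) or without blastoderm replicate 3 (adjusted p = 0.0570).

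CENPX, the histone-fold partner of CENPS, went the other way and was highest in CEF. It measured 6.93, 6.64 and 7.01 in PGC, 7.52, 7.17 and 6.60 in GSC, 8.01, 7.74 and 7.87 in CEF, and 6.41, 7.27 and 7.30 in blastoderm, 2.02-fold lower in PGC than in CEF (adjusted p = 0.00479). The CEF arrays lay above all others, though the call of CEF over blastoderm (adjusted p = 0.0109) ended without blastoderm replicate 1 (adjusted p = 0.0689) and that of GSC below CEF (adjusted p = 0.0272) ended without GSC replicate 2, GSC replicate 3, CEF replicate 1 or CEF replicate 3 (adjusted p of 0.0587, 0.141, 0.0819 and 0.0586).

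CENPO, another subunit of the group that holds CENPU, was highest in the gonadal stroma. Its levels were 6.32, 6.23 and 7.09 in PGC, 7.72, 7.50 and 7.36 in GSC, 5.81, 5.58 and 5.51 in CEF, and 6.23, 6.55 and 6.56 in blastoderm. All GSC arrays were above all others, and PGC replicate 3 lay nearest to them. PGC was 1.97-fold lower than GSC (adjusted p = 0.00491), and GSC was 3.71-fold higher than CEF (adjusted p = 5.62e-06) and 2.11-fold higher than blastoderm (adjusted p = 0.00105). CENPP, also of that group, has probe sets that disagree: the one used here was 1.47-fold higher in PGC than in blastoderm (adjusted p = 0.0212) and the other was lower by a log2 difference of -1.41 (adjusted p = 0.000175), so no direction is given for the gene. The remaining inner kinetochore genes, CENPI, CENPK, CENPL, CENPM, CENPQ and CENPW, differed from blastoderm by -0.14 to -1.48 in PGC on the log2 scale. CENPL and CENPM were called lower than blastoderm in PGC, GSC and CEF, with log2 differences of -1.48, -1.39 and -2.38 for CENPL and -1.48, -1.29 and -2.00 for CENPM. The other CENPM probe set above background was called in none of these (log2 -0.09, 0.20 and -0.24, adjusted p of 0.719, 0.407 and 0.313).

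The outer kinetochore had 5 members with 4 above background in some group. NUF2 and NDC80 form a dimer in the microtubule-binding complex. NUF2 measured 9.16, 8.84 and 8.68 in PGC, 8.14, 8.33 and 8.15 in GSC, 7.63, 6.79 and 7.51 in CEF, and 9.43, 9.13 and 9.27 in blastoderm. PGC and blastoderm overlapped (adjusted p = 0.151), GSC lay below both and CEF lay lowest, with NUF2 3.01-fold higher in PGC than in CEF (adjusted p = 7.93e-06) and 2.09-fold lower in GSC than in blastoderm (adjusted p = 0.000393). NDC80 measured 5.85, 6.13 and 5.98 in PGC, 6.67, 6.95 and 7.07 in GSC, 6.5, 6.17 and 6.25 in CEF, and 6.95, 6.75 and 6.68 in blastoderm.

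NDC80 and NUF2 therefore differed between the gonadal populations in opposite directions. NDC80 was 1.88-fold lower in PGC than in GSC (adjusted p = 0.00198), with no overlap of arrays. NUF2 was 1.61-fold higher in PGC than in GSC (adjusted p = 0.0202), again with no overlap, a call that ended without PGC replicate 1, GSC replicate 1 or GSC replicate 3 (adjusted p of 0.112, 0.0638 and 0.0670). NDC80 was also 1.75-fold lower in PGC than in blastoderm (adjusted p = 0.00237). Its call of CEF below blastoderm was at the threshold (adjusted p = 0.0468) and ended with the replicate number as a block (adjusted p = 0.0605), with quantile normalization or median centring (adjusted p of 0.0714 and 0.0635), and without GSC replicate 2, CEF replicate 2 or 3, or any blastoderm array, with log2 differences of -0.41 to -0.55. The decreases from blastoderm were larger on the other NDC80 probe set, at -2.20 in PGC (adjusted p = 8.15e-07) and -1.94 in CEF (adjusted p = 2.23e-06), and with both averaged they were -1.51 and -1.22 in place of -0.81 and -0.49, and both stayed called. CENPE, the kinesin that carries chromosomes to the spindle equator, measured 5.94, 4.82 and 4.46 in PGC, 5.86, 5.62 and 6.15 in GSC, 5.95, 6.01 and 5.86 in CEF, and 6.68, 6.12 and 6.5 in blastoderm, and was 2.57-fold lower in PGC than in blastoderm (adjusted p = 0.00175). The PGC arrays of CENPE spread widely, and only replicate 1 overlapped with GSC and CEF. CENPF, a large outer layer protein, measured 4.29, 2.63 and 2.93 in PGC, with 2 arrays below background, and 4.46, 3.71 and 3.67 in GSC. In CEF it measured 5.17, 4.15 and 4.43, and in blastoderm 4.35, 3.76 and 4.79. It was called lower in PGC than in CEF (log2 -1.30, adjusted p = 0.0145). That call ended without PGC replicate 2 or CEF replicate 1 (adjusted p of 0.0832 and 0.0733). With a constant of 64 added before the logarithm the difference was -0.25.

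Of the 7 spindle checkpoint genes, 6 were lower in PGC than in blastoderm, 5 in GSC and 7 in CEF, and none was higher. TTK, the kinase MPS1 that starts checkpoint signalling at kinetochores, measured 6.32, 6.65 and 4.45 in PGC, 5.67, 5.59 and 5.33 in GSC, 5.07, 5.16 and 5.32 in CEF, and 8.11, 7.99 and 8.27 in blastoderm. The blastoderm arrays stood well apart, with TTK 4.98-fold lower in PGC (adjusted p = 0.00015), 6.03-fold lower in GSC (adjusted p = 4.32e-05) and 7.66-fold lower in CEF (adjusted p = 9.78e-06). With its probe sets averaged, the log2 difference of GSC from blastoderm was -1.87 in place of -2.59. PGC replicate 3 held less TTK signal than any other array, and without it the log2 difference of PGC from blastoderm was -1.64 in place of -2.32.

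MAD2L1BP, which helps to silence the checkpoint by removing MAD2, measured 5.78, 5.94 and 5.67 in PGC, 5.34, 5.97 and 5.26 in GSC, 4.22, 4.65 and 4.90 in CEF, and 7.18, 7.66 and 7.81 in blastoderm. It was 3.37-fold lower in PGC (adjusted p = 2.57e-05), 4.08-fold lower in GSC (adjusted p = 4.58e-06) and 7.77-fold lower in CEF (adjusted p = 4.67e-08) than in blastoderm. CDC20, the activator of the anaphase-promoting complex that the checkpoint holds back, was 9.35, 9.17 and 9.34 in PGC, 9.51, 9.51 and 9.32 in GSC, 8.80, 8.60 and 8.62 in CEF, and 10.37, 10.66 and 10.71 in blastoderm. Here 3 tiers could be seen: blastoderm on top, PGC and GSC overlapping in the middle (adjusted p = 0.427), and CEF below. PGC was 2.45-fold, GSC 2.20-fold and CEF 3.75-fold lower than blastoderm (adjusted p of 4.12e-07, 1.44e-06 and 2.49e-09). BUB1, the kinase that marks centromeric chromatin, was 8.30, 8.41 and 7.88 in PGC, 8.05, 8.39 and 8.26 in GSC, 7.82, 7.51 and 7.60 in CEF, and 9.21, 9.38 and 9.32 in blastoderm, 2.15-fold, 2.10-fold and 3.16-fold lower in PGC, GSC and CEF than in blastoderm.

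For the checkpoint effectors MAD2L1 and BUB1B, the fibroblasts stood apart instead on the probe sets used. MAD2L1 (MAD2), which binds CDC20, measured 10.39, 10.20 and 10.25 in PGC, 10.16, 10.23 and 10.11 in GSC, 8.89, 8.76 and 8.67 in CEF, and 10.52, 10.67 and 10.67 in blastoderm. BUB1B (BUBR1), its partner in the checkpoint complex, measured 9.20, 9.18 and 8.76 in PGC, 8.63, 8.70 and 8.82 in GSC, 7.75, 7.55 and 7.23 in CEF, and 8.87, 8.87 and 9.01 in blastoderm. All CEF arrays of both genes lay below all others by a clear gap. MAD2L1 was 2.84-fold higher in PGC than in CEF (adjusted p = 7.08e-09) and 2.63-fold higher in GSC than in CEF (adjusted p = 2.12e-08), and BUB1B was 2.91-fold and 2.31-fold higher (adjusted p of 1.15e-06 and 2.01e-05). Averaged over their probe sets, the log2 differences of PGC from CEF were smaller, 0.63 in place of 1.5 for MAD2L1 and 0.76 in place of 1.54 for BUB1B, and both stayed called. On this probe set BUB1B was not called against blastoderm in PGC (log2 0.13 ± 0.16, adjusted p = 0.569) or GSC (log2 -0.20 ± 0.16, adjusted p = 0.366), while the second, dimmer one was called lower than blastoderm in PGC (log2 -0.89, adjusted p = 0.00763) and not in GSC (log2 -0.29, adjusted p = 0.396). Against CEF, that dimmer BUB1B probe set was not called in PGC (log2 -0.02, adjusted p = 0.963) or GSC (log2 0.59, adjusted p = 0.0731). MAD2L1 was called slightly lower than blastoderm in PGC (1.27-fold, adjusted p = 0.0144) and in GSC (1.37-fold, adjusted p = 0.00202), and neither call held when its probe sets were averaged (adjusted p of 0.144 and 0.240). The MAD2L1 averages, also that against CEF, take in a second probe set that was under background in every group. The call of PGC below blastoderm also ended without PGC replicate 2, blastoderm replicate 2 or blastoderm replicate 3 (adjusted p of 0.0560, 0.0593 and 0.0590). BUB3, the shared partner of BUB1 and BUB1B, stayed within 9.93 and 10.65 over all 12 arrays and was 1.27-fold lower in PGC than in GSC (adjusted p = 0.0136), a call lost without PGC replicate 2 or GSC replicate 2 (adjusted p of 0.0533 and 0.0652) and without the intensity trend (adjusted p = 0.0511).

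The 3 measured genes of the chromosomal passenger complex did not move as a unit. AURKB, its kinase, measured 8.83, 8.85 and 8.75 in PGC, 8.79, 8.60 and 8.42 in GSC, 8.69, 8.31 and 8.47 in CEF, and 11.28, 11.15 and 11.20 in blastoderm. The blastoderm arrays were more than 2 log2 units above all others, with AURKB 5.28-fold lower in PGC (adjusted p = 9.17e-10), 6.08-fold lower in GSC (adjusted p = 2.60e-10) and 6.59-fold lower in CEF (adjusted p = 7.73e-11). None of the 3 comparisons among the day 6.5 groups was called for AURKB (adjusted p of 0.322 for PGC versus GSC, 0.0656 for PGC versus CEF and 0.548 for GSC versus CEF).

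INCENP, the scaffold that activates AURKB, measured 8.40, 8.57 and 8.27 in PGC, 8.86, 8.66 and 8.71 in GSC, 7.39, 7.09 and 6.86 in CEF, and 9.20, 8.93 and 8.92 in blastoderm. BIRC5 (survivin), the subunit that directs the complex to centromeres, measured 8.26, 8.15 and 8.27 in PGC, 8.40, 8.48 and 8.23 in GSC, 7.04, 6.87 and 7.12 in CEF, and 8.22, 8.68 and 8.47 in blastoderm. For both, the CEF arrays were separate and low while the other groups were close together. INCENP was 2.46-fold higher in PGC (adjusted p = 7.27e-06) and 3.09-fold higher in GSC (adjusted p = 7.03e-07) than in CEF, and BIRC5 was 2.33-fold (adjusted p = 1.00e-05) and 2.57-fold higher (adjusted p = 3.67e-06). Against blastoderm, INCENP was 1.51-fold lower in PGC (adjusted p = 0.00783) and BIRC5 was not called in PGC or GSC (adjusted p of 0.271 and 0.710).

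PLK1, the main mitotic polo-like kinase, measured 9.29, 8.83 and 9.53 in PGC, 9.67, 9.75 and 9.53 in GSC, 8.74, 8.43 and 8.32 in CEF, and 9.77, 10.12 and 9.94 in blastoderm, 1.65-fold and 2.72-fold lower in PGC and CEF than in blastoderm (adjusted p of 0.00263 and 2.56e-06). PLK4, which starts centriole duplication, measured 7.39, 7.31 and 6.95 in PGC, 6.88, 7.12 and 6.78 in GSC, 6.66, 6.27 and 6.41 in CEF, and 8.72, 8.46 and 8.38 in blastoderm. TPX2, which activates Aurora A on spindle microtubules, measured 9.75, 9.73 and 9.55 in PGC, 9.78, 10.07 and 9.98 in GSC, 9.42, 9.28 and 9.28 in CEF, and 11.12, 10.81 and 10.87 in blastoderm. Blastoderm was above every other array for all 3 genes, and CEF was below every other array. PLK4 was 2.47-fold, 3.02-fold and 4.21-fold lower, and TPX2 2.39-fold, 1.99-fold and 3.04-fold lower, in PGC, GSC and CEF than in blastoderm. A second TPX2 probe set was not called against blastoderm in PGC (log2 0.08, adjusted p = 0.671) or GSC (log2 0.16, adjusted p = 0.410). It was called lower in CEF (log2 -0.91, adjusted p = 5.4e-05), and the third TPX2 probe set was called lower in all 3 groups.

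**Figure D3:**
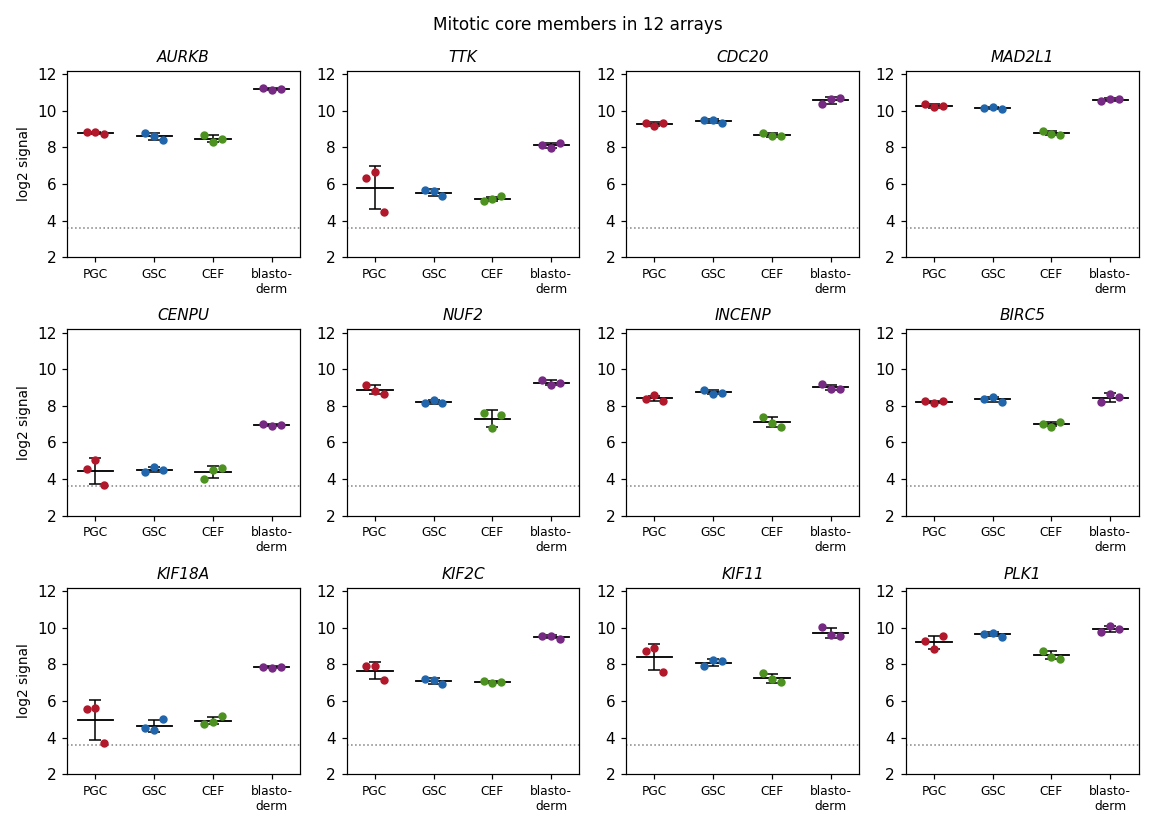
Log2 signal of 12 mitotic core members in each of the 3 arrays of PGC, GSC, CEF and blastoderm (points), with group mean and SD (bars) and the background of 3.61 (dotted line). AURKB, TTK, CENPU, KIF18A and KIF2C are high in blastoderm alone, whereas MAD2L1, NUF2, INCENP and BIRC5 are low in CEF.

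Among the 14 mitotic kinesins, none was called higher than blastoderm in PGC, GSC or CEF; 9 were lower in PGC, 11 in GSC and 11 in CEF. KIF18A, which shortens kinetochore microtubules and damps chromosome oscillation, measured 5.56, 5.64 and 3.70 in PGC, 4.51, 4.39 and 5.00 in GSC, 4.76, 4.86 and 5.17 in CEF, and 7.88, 7.78 and 7.88 in blastoderm. It was 7.37-fold lower in PGC (adjusted p = 1.23e-05), 9.29-fold lower in GSC (adjusted p = 3.13e-06) and 7.55-fold lower in CEF (adjusted p = 7.69e-06) than in blastoderm. Its PGC signal came from replicates 1 and 2, which lay above every GSC and CEF array, while replicate 3 was the lowest of all 12 arrays; without replicate 3 the log2 difference of PGC from blastoderm was -2.25 in place of -2.88.

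KIF2C (MCAK), the depolymerase that corrects faulty attachments under Aurora B control, measured 7.93, 7.93 and 7.15 in PGC, 7.22, 7.17 and 6.92 in GSC, 7.09, 6.98 and 7.05 in CEF, and 9.58, 9.54 and 9.41 in blastoderm. It was 3.59-fold, 5.31-fold and 5.55-fold lower in PGC, GSC and CEF (adjusted p of 1.36e-06, 5.61e-08 and 2.75e-08). KIF11 (Eg5), the motor that pushes spindle poles apart, measured 8.74, 8.89 and 7.58 in PGC, 7.89, 8.23 and 8.18 in GSC, 7.53, 7.19 and 7.03 in CEF, and 10.06, 9.61 and 9.57 in blastoderm, and KIF15, which shares that task, measured 7.39, 7.15 and 6.17 in PGC, 6.82, 7.10 and 7.45 in GSC, 6.17, 5.62 and 6.01 in CEF, and 8.94, 8.58 and 8.81 in blastoderm. Both pole-separating motors were highest in blastoderm and lowest in CEF, 5.64-fold lower in CEF than in blastoderm for KIF11 (adjusted p = 1.01e-06) and 7.18-fold lower for KIF15 (adjusted p = 2.58e-07). With its 5 probe sets averaged, some of them under background in every group, the log2 difference of KIF15 from blastoderm was -1.01 in place of -1.88 in PGC and -1.93 in place of -2.84 in CEF. On the other KIF15 probe sets above background it was -2.16 and -0.89 in PGC, the second not called (adjusted p = 0.0721), and -3.52 and -3.04 in CEF. PGC replicate 3 lay within the range of CEF for KIF15 and just above it for KIF11.

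Of the cytokinesis kinesins, KIF23 differed less from blastoderm than KIF18A, KIF2C, KIF11 and KIF15 on the probe sets used. KIF23, of the centralspindlin complex, measured 8.24, 8.51 and 8.39 in PGC, 8.34, 8.50 and 8.37 in GSC, 8.0, 7.79 and 7.81 in CEF, and 9.27, 9.14 and 9.17 in blastoderm, 1.76-fold, 1.74-fold and 2.52-fold lower in PGC, GSC and CEF. KIF20A, which carries the passenger complex to the midzone, measured 8.05, 8.06 and 7.11 in PGC, 7.82, 7.44 and 7.79 in GSC, 7.05, 7.01 and 6.89 in CEF, and 8.80, 8.61 and 8.64 in blastoderm. Both were again highest in blastoderm and lowest in CEF on these probe sets. A second KIF20A probe set was lower, not higher, in GSC than in CEF (log2 -0.98, adjusted p = 0.00494, against 0.70 here), and it was called neither in PGC (log2 0.25, adjusted p = 0.444) nor in CEF (log2 -0.07, adjusted p = 0.868) against blastoderm. With both probe sets averaged the call of PGC below blastoderm ended (adjusted p = 0.211), so only the call of GSC below blastoderm was shared by both, and the order of the groups is not settled for this gene. KIF14, which works late in cytokinesis, measured 3.55, 3.40 and 3.61 in PGC, 3.43, 3.50 and 3.76 in GSC, 2.44, 2.68 and 2.49 in CEF, and 4.25, 4.63 and 5.31 in blastoderm. It was thus at background in CEF, at least 2.17-fold lower than in blastoderm (adjusted p = 5.60e-07), and near background in PGC and GSC.

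KIF24, which depolymerises microtubules at centrioles and restrains cilium formation, had an order of its own. It measured 5.44, 5.49 and 4.40 in PGC, 3.85, 3.66 and 3.89 in GSC, 2.55, 3.36 and 2.76 in CEF, and 5.74, 4.95 and 4.93 in blastoderm. PGC overlapped with blastoderm (adjusted p = 0.832), GSC was just above background and every CEF array was below it. PGC was 2.48-fold higher than GSC (adjusted p = 0.00481) and at least 2.84-fold higher than CEF (adjusted p = 1.87e-05), and GSC was 2.65-fold lower than blastoderm (adjusted p = 0.00131). Averaged with a second KIF24 probe set, under background in every group, the log2 difference of PGC from CEF was 1.36 in place of 2.23. Of the other mitotic kinesins, KIF18B and KIF4B were called lower than blastoderm in PGC, GSC and CEF, with log2 differences of -1.50, -1.74 and -1.84 for KIF18B and -0.51, -0.50 and -1.0 for KIF4B. The call of KIF4B in PGC (adjusted p = 0.0298) ended without PGC replicate 3 (log2 -0.31, adjusted p = 0.125). KIF2A and KIFC1, with roles in both dividing and non-dividing cells, were not called against blastoderm in any group, KIFC1 staying between 3.52 and 4.13 in all 12 arrays.

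Between PGC and GSC the count of called members depended on single arrays, PGC replicate 3 above all. PGC replicate 3 was the lowest of the 3 PGC arrays for 45 of 75 members (60%), against 37.5% of all genes, and for 10 of 14 mitotic kinesins. KIF20B, a motor of the midzone and abscission, measured 7.85, 7.22 and 5.81 in PGC and 5.55, 6.05 and 6.24 in GSC, so that replicates 1 and 2 lay above every GSC array and replicate 3 among them. Without replicate 3, 20 members were higher and 9 lower in PGC than in GSC, in place of 9 and 7: 13 calls were gained and 0 lost. Over all genes the shares were 20.7% higher and 16.8% lower without it, in place of 16.8% and 13.4%. Gained as higher in PGC were CENPC (log2 1.01, adjusted p = 0.000456), BUB1B, TTK (0.95, adjusted p = 0.00133), KIF11 (0.72, adjusted p = 0.00797), KIF18A (0.97, adjusted p = 0.0027), KIF20B (1.59, adjusted p = 0.000206), KIF16B (1.73, adjusted p = 5.16e-05), KIF1BP, KIF27 (at background), KIFAP3 and CENPJ, and gained as lower were CENPH and PLK1. Against blastoderm, leaving it out ended the call of KIF4B and added KIF16B as higher (log2 0.67, adjusted p = 0.0414) and KIFC2 as lower in PGC (-0.55, adjusted p = 0.0311). Against CEF it added TTK (1.30, adjusted p = 4.53e-05), KIF18A (0.67, adjusted p = 0.0211), KIF20B (1.44, adjusted p = 0.000284) and KIF25 (0.95, adjusted p = 0.0283) as higher in PGC. It also ended the calls of CENPE (-0.56, adjusted p = 0.126, in place of -0.87, adjusted p = 0.0310) and KIF5C (-0.56, adjusted p = 0.0762, in place of -0.79, adjusted p = 0.0200) as lower in PGC than in CEF. That of CENPE ended too without PGC replicate 2 or any CEF array (adjusted p of 0.0528 to 0.107), and its other probe set was not called (log2 -0.05, adjusted p = 0.907). That of KIF5C ended too without CEF replicate 1 or 3 (adjusted p of 0.0771 and 0.0518). Without PGC replicate 1, 5 members were higher in PGC than in GSC, beside 12.1% of all genes in place of 16.8%. Leaving out GSC replicate 3 also gave 5. The correlation of PGC replicate 3 with the mean GSC profile over all probe sets was 0.966, against 0.935 and 0.944 for PGC replicates 1 and 2, and its fibroblast and matrix marker median was 9.55, against 7.93 and 8.40. TTK, KIF18A, KIF11 and CENPU in replicate 3 lay below the mean of GSC itself, which was higher by 1.08, 0.93, 0.52 and 0.86 on the log2 scale. KIF24, KIF3A, KIF2C and KIF25, also among the members with the largest shortfall, lay above it. For these the GSC mean minus replicate 3 was -0.60, -0.36, -0.04 and -0.19. The part of gonadal somatic RNA in these values was not tested.

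**Figure D4:**
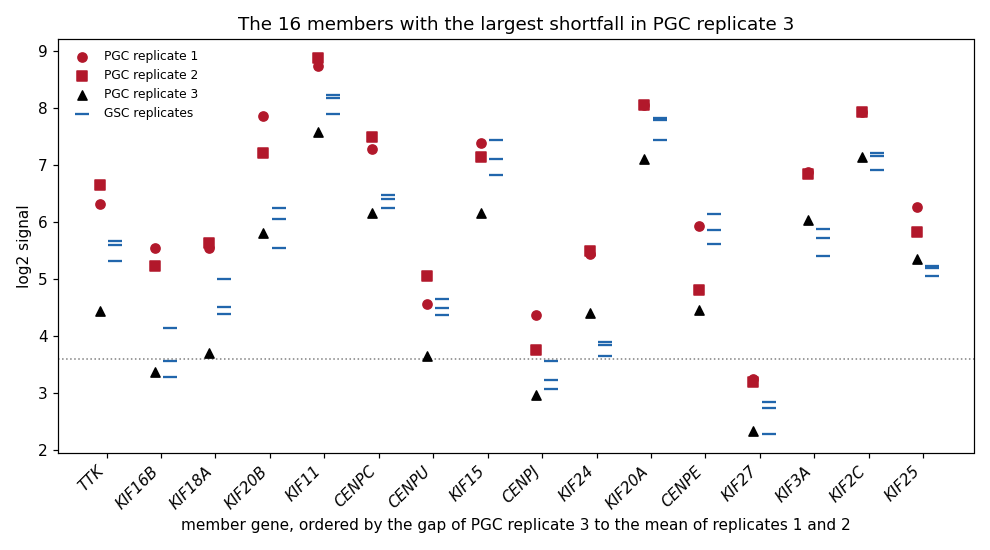
Log2 signal of the 16 members with the largest shortfall of PGC replicate 3 (black triangles) below the mean of PGC replicates 1 and 2 (red), with the 3 GSC arrays (blue dashes) and the background of 3.61 (dotted line). For TTK, KIF18A, KIF11, CENPU and KIF15, among others, replicate 3 lies below all GSC arrays, and for KIF24 and KIF3A it lies above them.

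With all 3 PGC arrays in the fit, the calls between PGC and GSC within the mitotic core were CENPW, NUF2, KIF24 and KIF2C as higher in PGC, and CENPK, CENPO, NDC80 and BUB3 as lower. CENPW, a histone-fold partner of CENPT, measured 8.77, 8.93 and 8.36 in PGC and 8.17, 7.81 and 7.77 in GSC, 1.71-fold higher in PGC (adjusted p = 0.00746) with no overlap. The KIF2C call was marginal (adjusted p = 0.0493, with overlapping arrays) and ended when any GSC, CEF or blastoderm array, or PGC replicate 1 or 2, was left out, with adjusted p of 0.0542 to 0.213. CENPK, of the group that holds CENPH, was 1.51-fold lower in PGC (adjusted p = 0.0295), and its call ended without PGC replicate 1 or any GSC array, with adjusted p of 0.0625 to 0.143.

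PLK2 and PLK3 are polo-like kinases induced by growth factors and stress, with tasks outside mitosis. PLK2 measured 5.39, 5.94 and 6.19 in PGC, 6.83, 6.54 and 7.24 in GSC, 9.48, 8.68 and 9.42 in CEF, and 5.63, 5.92 and 6.27 in blastoderm. The CEF arrays were far above all others, the GSC arrays formed a second tier, and PGC and blastoderm overlapped (adjusted p = 0.801). PLK2 was 10.2-fold lower in PGC than in CEF (adjusted p = 4.85e-08), 5.00-fold lower in GSC than in CEF (adjusted p = 3.90e-06) and 9.53-fold higher in CEF than in blastoderm (adjusted p = 4.53e-08). The step of GSC below CEF was smaller on the other PLK2 probe sets, with log2 differences of -1.39 (adjusted p = 0.00382) and -1.05 (adjusted p = 0.0721), and with all 3 averaged it was -1.59 in place of -2.32 (adjusted p = 0.00156). The smaller step of GSC over blastoderm, 1.90-fold (adjusted p = 0.0115), ended without GSC replicate 3 or blastoderm replicate 1 (adjusted p of 0.0648 and 0.0556), and that of PGC below GSC, 2.04-fold (adjusted p = 0.0109), ended without PGC replicate 1 or GSC replicate 3 (adjusted p of 0.0687 and 0.0662).

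PLK3 was instead highest in blastoderm, as PLK1 and PLK4 were, but unlike theirs its CEF and PGC arrays overlapped. It measured 6.32, 5.76 and 6.34 in PGC, 6.35, 6.78 and 6.73 in GSC, 6.23, 5.98 and 6.12 in CEF, and 7.79, 8.54 and 8.55 in blastoderm. Every blastoderm array lay above every other array, and PLK3 was 4.45-fold lower in PGC (adjusted p = 1.71e-06), 3.19-fold lower in GSC (adjusted p = 2.15e-05) and 4.54-fold lower in CEF (adjusted p = 9.47e-07). With its probe sets averaged the log2 differences were larger, at -2.87, -2.45 and -2.87.

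Among the 22 transport and cilium kinesins, single genes marked single groups. KIF9, a kinesin of motile cilia and flagella, was above background in all PGC arrays and at background elsewhere. It measured 5.55, 6.14 and 5.72 in PGC, 3.22, 3.22 and 3.37 in GSC, 3.45, 3.63 and 2.85 in CEF, and 3.09, 3.47 and 3.45 in blastoderm. PGC was at least 4.58-fold higher than GSC (adjusted p = 8.20e-07), at least 4.58-fold higher than blastoderm (adjusted p = 2.46e-07) and also higher than CEF (adjusted p = 1.86e-07), where the mean of 3.31 was under background and no fold is given. Of the 3 other KIF9 probe sets, both that were above background in PGC were called the same way in all 3 comparisons, and the third, under background in every group, was called in none (log2 -0.01 for PGC versus GSC, -0.28 for PGC versus CEF and -0.13 for PGC versus blastoderm). With all 4 averaged, the log2 differences in that order were 1.44, 1.44 and 1.48, in place of 2.54, 2.49 and 2.47. PGC replicate 3 lay between the other PGC arrays. Markers of kidney epithelium also moved with PGC: 4 of 4 were above background in every PGC array, with a median of 7.87 to 8.88, against 4.12 to 4.74 in GSC, 2.99 to 3.15 in CEF and 3.15 to 3.55 in blastoderm. Their part in the KIF9 signal was not tested.

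The conventional kinesin heavy chains KIF5B and KIF5C, motors of long-range cargo transport, were unequal in PGC. KIF5B measured 5.31, 5.76 and 5.00 in PGC, 6.44, 6.74 and 6.95 in GSC, 6.14, 6.94 and 7.40 in CEF, and 6.45, 6.80 and 6.93 in blastoderm. All PGC arrays of this broadly expressed motor lay below all others, and PGC was 2.56-fold lower than GSC (adjusted p = 0.00263), 2.78-fold lower than CEF (adjusted p = 0.000611) and 2.59-fold lower than blastoderm (adjusted p = 0.00112). A second KIF5B probe set was not called for PGC versus CEF (log2 -0.44, adjusted p = 0.369), while the third was (log2 -2.23, adjusted p = 1.38e-07). Both were called lower in PGC than in GSC and blastoderm. KIF5C, known as a neuronal form in mammals, measured 7.44, 7.20 and 6.64 in PGC, 6.08, 6.21 and 5.90 in GSC, 8.11, 7.60 and 7.92 in CEF, and 6.51, 5.66 and 5.82 in blastoderm. KIF5C was 2.04-fold higher in PGC than in GSC (adjusted p = 0.00695), a call shared by both of its other probe sets above background, and 3.51-fold lower in GSC than in CEF (adjusted p = 2.60e-05). Its call of PGC over blastoderm (2.13-fold, adjusted p = 0.00230) was not met in either of these (log2 0.03 and -0.42) and ended when all 4 probe sets of the gene, of which 1 was under background in every group, were averaged (log2 0.18, adjusted p = 0.417).

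KIF21A, a kinesin that restrains microtubule growth at the cell cortex, was at background in the fibroblasts. It measured 6.52, 6.65 and 5.92 in PGC, 6.49, 6.55 and 7.07 in GSC, 3.45, 3.43 and 3.14 in CEF, and 7.48, 6.53 and 6.35 in blastoderm. Every CEF array was below background and the other 3 groups overlapped. PGC was at least 6.74-fold higher than CEF (adjusted p = 3.29e-07), GSC was at least 8.56-fold higher than CEF (adjusted p = 1.19e-07), and CEF was at least 9.06-fold lower than blastoderm (adjusted p = 4.75e-08). A second KIF21A probe set was called the same way with smaller log2 differences, 1.03 for PGC versus CEF and 2.16 for GSC versus CEF. With both averaged, they were 2.03 and 2.76, in place of 3.02 and 3.37.

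KIF1B, a carrier of mitochondria and synaptic vesicle precursors, was also low in CEF and high in both gonadal groups. It measured 8.37, 8.41 and 8.75 in PGC, 8.74, 8.87 and 8.71 in GSC, 6.92, 6.26 and 7.07 in CEF, and 7.88, 7.16 and 7.47 in blastoderm. PGC was 3.39-fold higher than CEF (adjusted p = 7.75e-06) and GSC 4.08-fold higher than CEF (adjusted p = 1.92e-06). The step of PGC over blastoderm, 2.01-fold (adjusted p = 0.00166), ended when all 5 probe sets of the gene were averaged (adjusted p = 0.0929). The log2 differences from CEF were then 0.82 in place of 1.76 for PGC and 1.18 in place of 2.03 for GSC. Some of the 5 were under background in every group. Both other probe sets above it were called the same way against CEF, at 1.84 and 1.35 for PGC and 2.31 and 2.12 for GSC. For PGC over blastoderm, 1 of them was called (log2 0.94, adjusted p = 0.00523) and 1 was not (log2 -0.08, adjusted p = 0.827).

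KIF26A, a kinesin without motor activity that acts in growth factor signalling in mice, was high in CEF instead. It measured 4.11, 4.46 and 4.58 in PGC, 5.50, 5.78 and 5.67 in GSC, 6.13, 6.77 and 6.81 in CEF, and 4.87, 4.06 and 3.83 in blastoderm. CEF was highest and GSC next, while PGC and blastoderm overlapped (adjusted p = 0.727). PGC was 2.40-fold lower than GSC (adjusted p = 0.00262) and 4.55-fold lower than CEF (adjusted p = 6.06e-06), GSC was 2.64-fold higher than blastoderm (adjusted p = 0.000477), and CEF was 5.00-fold higher than blastoderm (adjusted p = 2.25e-06). Since the gene's signal is low, the log2 difference of PGC from CEF was -0.91 with a constant of 64 added, in place of -2.19. It was -0.92 with its 3 probe sets averaged, of which only the one used here was above background in any group. With its probe sets averaged, that of CEF from blastoderm was 0.81 in place of 2.32, that of GSC from blastoderm 0.46 in place of 1.40 and that of PGC from GSC -0.57 in place of -1.27. The call of GSC below CEF (log2 -0.92, adjusted p = 0.0134) ended with the probe sets averaged (adjusted p = 0.065). It also ended without GSC replicate 1, CEF replicate 2 or CEF replicate 3 (adjusted p of 0.053, 0.058 and 0.055).

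Kinesin-2, the motor of cilium assembly, is built from KIF3A, KIF3B and the adaptor KIFAP3. KIFAP3 measured 8.28, 8.26 and 7.93 in PGC, 7.78, 7.79 and 7.89 in GSC, 8.64, 8.43 and 8.31 in CEF, and 5.42, 5.57 and 5.63 in blastoderm. It was the clearest gene of low level in blastoderm among the members, 6.13-fold higher in PGC (adjusted p = 4.02e-09), 4.85-fold higher in GSC (adjusted p = 1.40e-08) and 7.56-fold higher in CEF (adjusted p = 4.63e-10). The motor subunits did not share this order. KIF3A measured 6.87, 6.85 and 6.03 in PGC, 5.73, 5.88 and 5.40 in GSC, 5.01, 5.54 and 5.89 in CEF, and 6.14, 6.5 and 6.28 in blastoderm, and was 1.88-fold higher in PGC than in GSC (adjusted p = 0.0197), a call lost without PGC replicate 1, PGC replicate 2 or GSC replicate 3 (adjusted p of 0.0979, 0.0876 and 0.0914). KIF3B was at background in GSC and CEF and between 3.63 and 4.41 in PGC and blastoderm.

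KIF16B, a carrier of early endosomes, measured 5.56, 5.23 and 3.38 in PGC, 3.28, 3.57 and 4.14 in GSC, 3.16, 3.56 and 3.30 in CEF, and 4.84, 4.61 and 4.73 in blastoderm. Every CEF array was below background, and PGC was above background in replicates 1 and 2 only. KIF13A, a carrier of endosomes and cell surface receptors, measured 6.40, 6.30 and 6.06 in PGC, 6.52, 6.51 and 6.60 in GSC, 7.28, 7.20 and 6.81 in CEF, and 6.35, 6.11 and 5.82 in blastoderm. It was highest in CEF and 1.80-fold lower in PGC than in CEF (adjusted p = 0.00279). Of the remaining kinesins, KIF7, the cilium tip regulator of Hedgehog signalling, and KIF12 were called in none of the 6 comparisons. Calls of KIF20AL, KIF27 and KIF6 below blastoderm concern values at or under background and give no level.

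**Figure D5:**
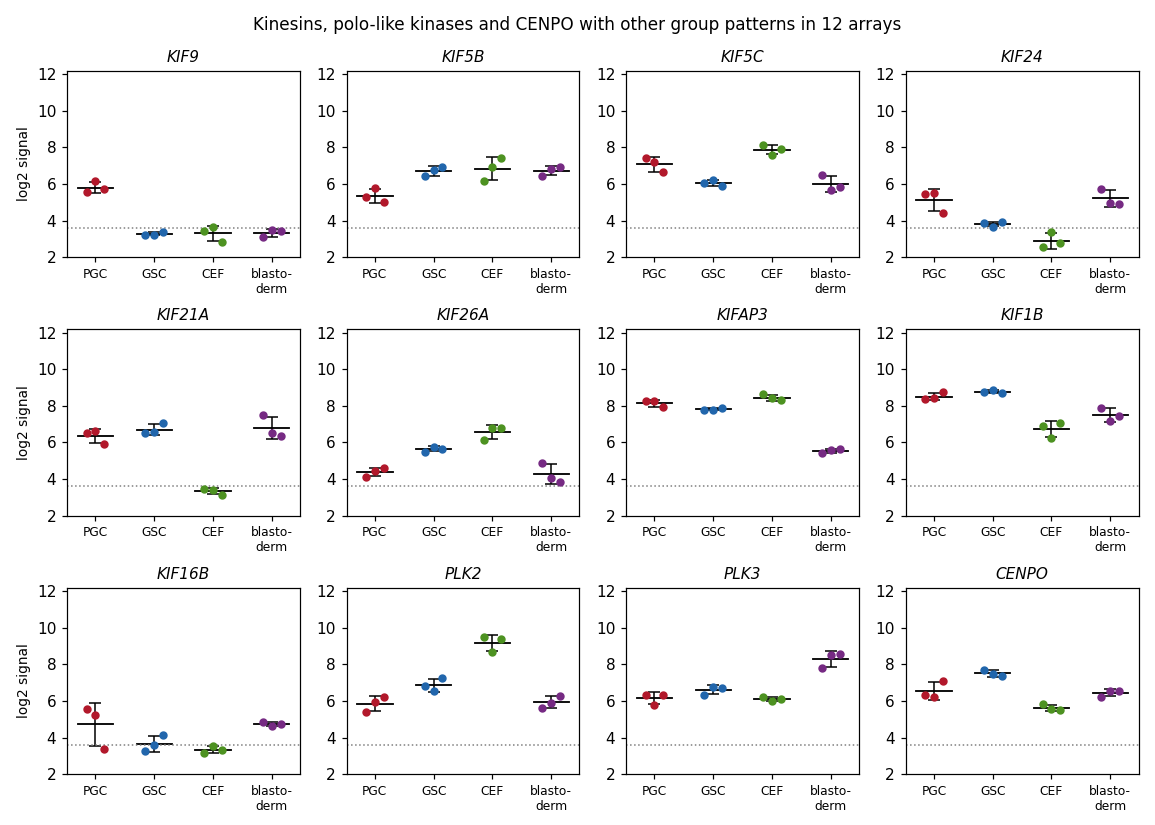
Log2 signal of 8 transport and cilium kinesin genes and of KIF24, PLK2, PLK3 and CENPO in the 3 arrays of PGC, GSC, CEF and blastoderm (points), with group mean and SD (bars) and the background of 3.61 (dotted line). KIF9 is high in PGC, KIF5B low in PGC, KIF21A low in CEF, PLK2 and KIF26A high in CEF, PLK3 high in blastoderm, KIFAP3 low in blastoderm and CENPO high in GSC.

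The symbol rule also took 4 genes outside these roles. CENPJ, a centriole elongation factor, measured 4.37, 3.76 and 2.97 in PGC, 3.08, 3.23 and 3.56 in GSC, 3.51, 3.86 and 3.65 in CEF, and 5.42, 5.74 and 5.78 in blastoderm. It was above background in blastoderm and close to it or below it elsewhere, 3.86-fold lower in PGC (adjusted p = 3.13e-05), at least 4.12-fold lower in GSC (adjusted p = 3.44e-06) and 3.93-fold lower in CEF (adjusted p = 2.01e-05). AURKAIP1, a protein of the mitochondrial ribosome that was named for binding Aurora A, was 8.02, 7.98 and 7.94 in PGC, 7.81, 7.64 and 7.37 in GSC, 7.88, 7.66 and 7.96 in CEF, and 9.20, 9.11 and 8.91 in blastoderm, again separate in blastoderm. CENPV, a centromere and microtubule protein, was highest in PGC, at 7.15, 7.09 and 6.99, against 6.33, 5.83 and 5.63 in GSC, 6.76, 6.46 and 6.81 in CEF and 6.12, 6.55 and 6.54 in blastoderm. It was 2.21-fold higher in PGC than in GSC (adjusted p = 0.000926), and 1.59-fold higher in PGC than in blastoderm (adjusted p = 0.0189), the second a call lost without PGC replicate 1 or blastoderm replicate 1 (adjusted p of 0.0566 and 0.0873). MAD2L2 (REV7), a DNA repair and anaphase regulator, was lowest in CEF, 1.65-fold higher in PGC than in CEF (adjusted p = 0.00101).

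A list of 64 other measured mitosis genes, chosen with earlier results of these data known, had similar counts. Compared with blastoderm, 4 were higher and 36 lower in PGC, 4 higher and 40 lower in GSC, and 0 higher and 47 lower in CEF, with median log2 differences of -0.72, -0.82 and -1.15. Against CEF, 31 were higher and 2 lower in PGC, and 29 higher and 4 lower in GSC, while 9 were higher and 4 lower in PGC than in GSC. The shares of all genes in these comparisons are those given with the mitotic core. CDC25A, the phosphatase that activates cyclin-dependent kinases, averaged 5.64 for PGC, 5.39 for GSC, 6.05 for CEF and 9.93 for blastoderm, 19.6-fold lower in PGC (adjusted p = 2.17e-10), 23.3-fold lower in GSC and 14.7-fold lower in CEF. NEK2, a centrosome kinase, averaged 7.90 for PGC, 7.44 for GSC, 6.32 for CEF and 10.49 for blastoderm, and SGO1, which protects centromeric cohesion, was 4.62-fold lower in PGC than in blastoderm. The exceptions included ANLN, the contractile ring scaffold, which was lower in PGC than in CEF (log2 -1.68) and lower in GSC than in CEF (log2 -1.66), and ANAPC13, a small subunit of the anaphase-promoting complex, which was 4.69-fold higher in PGC than in blastoderm (adjusted p = 2.76e-05) and 4.12-fold higher in PGC than in GSC (adjusted p = 0.000212).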

How the data were processed

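Levels were the authors' deposited log2 values, 1 table of 38535 probe sets and 12 arrays. Per the labels' protocols, 5 µg of total RNA per sample was labelled by the manufacturer's protocol. Per the submitters' processing notes MAS5 was used, with no version or role given; the steps to log2 are not given in the sources used. Control (96) and viral or reporter (746) probe sets were left out, which left 37693. Genes were named from the array's annotation: 27166 probe sets have 1 symbol, 177 several and 10350 none. The tests were two-sided limma tests (version 3.58.1, R 4.3.3), fitted to all 12 arrays with lmFit and trended eBayes on 8 residual degrees of freedom, with Benjamini-Hochberg adjustment over all probe sets of each comparison and no pairing. Array number limits the precision. A gene's fold is a lower bound, set against background, where every array of the lower group is at or under it. Per array, values are given for a list of well-known mitotic genes and for some called members with non-overlapping groups. Of these, up to 8 with the largest change in each direction were taken per comparison. For members named only in this way, the lack of overlap in that comparison follows from the choice. The members and lists were chosen with earlier results of these data known. Fits were tested on simulated data. No probe, promoter or protein sequence was used here.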

Additional observations from a re-analysis of the deposited data

How the results depend on the processing

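Of the 12 counts of called members, all stayed within 1.5 times their value with a constant of 16 or 64 added on the linear scale, a filter at background, quantile normalization, median centring, no intensity trend, probe sets ending in _x_at used last, and only the arrays compared. Array weights gave 10 members higher in GSC than in blastoderm in place of 6 (31.8% of all genes in place of 24.8%), and 23 higher and 11 lower in PGC than in GSC in place of 9 and 7 (24.3% and 22.1% of all genes in place of 16.8% and 13.4%). Averaging all probe sets of a gene gave 4 members higher in PGC than in blastoderm in place of 8 (24.7% of all genes in place of 26.2%). It also turned CENPP (-0.43 in place of 0.56 for PGC versus blastoderm, -0.48 in place of 0.75 for GSC versus blastoderm) and KIF20A (-0.14 in place of 0.70 for GSC versus CEF), whose probe sets disagree. Leaving out each array in turn, the members called higher and lower ranged from 5 to 9 and from 33 to 36 for PGC versus blastoderm, 6 to 7 and 31 to 37 for GSC versus blastoderm, 5 to 7 and 44 to 50 for CEF versus blastoderm, 5 to 20 and 5 to 9 for PGC versus GSC, 25 to 38 and 7 to 10 for PGC versus CEF, and 22 to 33 and 6 to 10 for GSC versus CEF. The 20 came without PGC replicate 3, and the lowest counts of 5 higher in PGC came without PGC replicate 1, GSC replicate 3 (against GSC) or blastoderm replicate 3 (against blastoderm). Of 156 named differences, the constant of 16 moved 17 and that of 64 moved 41 by over 1.5 times, and averaging a gene's probe sets moved 40, ended 10 calls and turned 3. For some genes that average takes in probe sets under background in every group. With the replicate number as a block, every count stayed within 1.5 times and of the named calls that of NDC80 in CEF versus blastoderm ended (adjusted p = 0.0605). The deviations did not show that the numbers pair samples. Same-numbered deviations correlated at -0.14 to 0.18, over 0.1 in 7 of 18 pairs, and 8 of 18 were best with their own number. The poly-A control probe sets did follow the number in GSC and blastoderm. Their log2 signal in replicates 1 to 3 was 5.54, 4.45 and 4.01 in GSC, and 5.56, 4.57 and 4.04 in blastoderm. In PGC and CEF it was higher, from 6.01 to 7.59, and did not fall in that order. Whether arrays were processed in batches, and the part of this in the differences between groups, was not tested. Levels near background limit folds of KIF9, KIF14, KIF21A, KIF24 and CENPJ.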
